A study of Mus musculus with 14 samples.

Results

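Killer lectin-like receptors are surface proteins first known from natural killer (NK) cells, which CD8+ T cells also carry as they gain effector or memory properties. The genes described here are 5 receptor chains (Klrd1, Klrc1, Klrc2, Klrk1 and Klrg1) and 2 adaptors that carry the signal of the activating receptors into the cell (Hcst and Tyrobp). These 7 genes, of 19937 with a symbol of their own in the array annotation, were chosen by name, and each had 1 probe set. Klrd1 encodes CD94, which pairs with NKG2A (Klrc1), an inhibitory chain, or with NKG2C (Klrc2), an activating chain, and the pairs bind the non-classical MHC molecule Qa-1. Klrk1 encodes NKG2D, an activating receptor for stress-induced MHC-like ligands that signals through DAP10 (Hcst), and in mouse NK cells also through DAP12 (Tyrobp), which NKG2C uses as well. Klrg1 encodes an inhibitory receptor for cadherins that marks terminally differentiated effector CD8+ T cells.

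The study compared mice labelled WT and ENK KO, all of strain C57BL/6, in T cells isolated with a cell sorter at necropsy. What ENK stands for is not written out in the labels; Engrailed-2, a homeobox transcription factor, appears in the title of the series. CD4+CD8+ lymphocytes, the immature double-positive stage, came from the thymus of WT mice (n = 3, all 7 months old, 1 labelled female) and ENK KO mice (n = 2, a female of 2 months and a male of 7 months). CD8+ lymphocytes came from the spleen of WT mice (n = 4, all 7 months old, 1 labelled female) and ENK KO mice (n = 5, females replicate 3 and replicate 6 of 2 months, and males replicate 31 of 7 months, replicate 28 of 6 months and replicate 25 of 9 months). Age and sex thus coincided within ENK KO, and no WT animal was as young. Separate animals are not stated in the labels, so n counts arrays. Values are log2 expression per probe set, 1 array per sample, made by the authors with RMA, which removes background, brings arrays to a common distribution and combines the probes of a set. Array medians lay between 7.14 and 7.25, and the number of arrays per group limits the precision.

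The spleen library labelled ENK KO replicate 28 went against its label. Its Cd8a value was 6.78 and its Cd8b1 value 9.10, against at least 12.06 and 13.20 on the other 8 spleen arrays, while Cd4 was 12.20, against 6.61 to 6.92. Foxp3, the regulator of regulatory T cells, measured 9.87 there and 7.34 to 7.48 on the others. It is therefore shown apart, with a mean of its own in every fit, and the ENK KO spleen group holds 4 arrays unless stated otherwise. NK cells could bring the same receptors into a sort, and of 8 NK cell markers listed, 7 had a probe set. The mean of these 7 was 5.49 to 5.55 on thymus arrays, 5.85 to 6.01 on WT spleen arrays, 5.71 to 5.97 on ENK KO spleen arrays and 6.00 on replicate 28. Ncr1, the defining receptor of NK cells, measured 4.78 to 5.32 in spleen and 5.05 to 5.09 in thymus, and Ncr1, Klrb1c, Klra8 and Klri2 never exceeded 6.76, the 40th percentile of all values that served as the filter on low values. The other 3 markers, Itga2, Fcgr3 and Fcer1g, were below that level on every thymus array and were called higher in WT spleen, by 1.20 (limma adjusted p = 2.31e-07), 0.69 (limma adjusted p = 2.79e-06) and 0.75 (limma adjusted p = 0.00279). As these 3 passed the filter only through spleen arrays, their calls give no support of their own. The part of NK cells in the receptor differences was not tested.

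Klrd1, Klrk1, Klrc2 and Klrc1 lie in the NK gene complex on chromosome 6, and 3 of them have a promoter in the RefSeq table used (GRCm38.p6). These are shown because the 3 genes ranked the spleen arrays alike, as given further on; for Klrc2 the first of 2 listed starts is shown. Each runs from 250 bases before the annotated start to 50 bases after it, 5′ to 3′ on the minus strand. Capitals mark ACCACA or its reverse complement TGTGGT, the core recognised by RUNX factors, which take part in CD8+ T cell development.

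Klrc1 promoter, chr6:129678924-129679223: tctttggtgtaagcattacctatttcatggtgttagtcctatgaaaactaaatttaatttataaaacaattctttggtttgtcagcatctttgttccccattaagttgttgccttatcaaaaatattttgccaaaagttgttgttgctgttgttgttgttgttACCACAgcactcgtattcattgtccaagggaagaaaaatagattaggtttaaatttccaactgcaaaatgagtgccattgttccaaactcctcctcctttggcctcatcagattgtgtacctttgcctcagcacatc

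Klrc2 promoter, chr6:129660547-129660846: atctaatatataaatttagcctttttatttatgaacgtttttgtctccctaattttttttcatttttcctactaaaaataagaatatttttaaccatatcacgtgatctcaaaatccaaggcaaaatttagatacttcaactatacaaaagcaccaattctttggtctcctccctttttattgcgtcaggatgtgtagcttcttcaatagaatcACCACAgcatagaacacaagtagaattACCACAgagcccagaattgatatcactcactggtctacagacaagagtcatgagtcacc

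Klrk1 promoter, chr6:129623815-129624114: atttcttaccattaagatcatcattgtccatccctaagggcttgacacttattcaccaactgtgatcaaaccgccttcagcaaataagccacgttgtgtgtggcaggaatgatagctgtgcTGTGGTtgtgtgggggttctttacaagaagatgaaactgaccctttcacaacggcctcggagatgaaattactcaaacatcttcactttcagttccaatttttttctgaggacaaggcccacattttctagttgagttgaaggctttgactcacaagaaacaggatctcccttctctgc

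The core was present once in the Klrc1 window, at 2 places in the Klrc2 window and once, on the other strand, in the Klrk1 window. The Hcst promoter (chr7:30419805-30420104, minus strand) held 0 copies. On either strand it was found in 16.8% of 32851 promoters of this length, so that these matches are common letters and a description only. TCACAC or its reverse complement GTGTGA, a core of T-box factors such as T-bet and Eomes, was in 0 of the 4 member promoters and in 14.5% of all promoters.

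Receptor chains of the CD94 and NKG2D families were low in thymus and high in spleen CD8+ cells, in both genotypes. Klrd1, the shared CD94 chain, measured 5.23 on each of the 3 WT thymus arrays and 5.17 and 5.23 on the 2 ENK KO thymus arrays. It measured 10.93, 10.95, 11.00 and 11.28 on the WT spleen arrays and 10.70, 10.95, 10.95 and 11.02 on the ENK KO spleen arrays. The populations were far apart and the genotypes overlapped within each. Several arrays shared the same value, 5.23 in thymus or 10.95 in spleen, and these equal values enter the SEs below. WT spleen CD8+ cells exceeded WT thymus cells by 5.81 (SE 0.09; 56.1-fold; limma adjusted p = 2.09e-13), and the ENK KO difference was 5.71 (SE 0.10; 52.3-fold; limma adjusted p = 9.29e-13). In these bulk samples, fewer cells with a transcript and less of it per cell cannot be told apart.

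Klrc1, the inhibitory partner NKG2A, measured 4.08, 4.27 and 4.27 in WT thymus and 4.27 on both ENK KO thymus arrays. In spleen it measured 8.61, 8.95, 9.00 and 9.94 in WT and 6.75, 7.97, 8.28 and 9.20 in ENK KO. Spleen and thymus values did not overlap. The difference between the populations was 4.92 in WT (SE 0.45; 30.3-fold; limma adjusted p = 9.28e-07) and 3.78 in ENK KO (SE 0.51; 13.8-fold; limma adjusted p = 3.61e-05).

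Klrc2, the activating partner NKG2C, measured 5.18 to 5.34 in WT thymus and 5.13 and 5.43 in ENK KO thymus. In spleen it measured 7.53, 7.57, 8.05 and 8.10 in WT and 6.33, 7.01, 7.38 and 8.30 in ENK KO. All spleen values lay above all thymus values, and the ENK KO spleen arrays were spread more widely than the WT ones (SD 0.82 against 0.30). The difference was 2.57 in WT (SE 0.34; 5.92-fold; limma adjusted p = 2.82e-05) and 1.98 in ENK KO (SE 0.39; 3.93-fold; limma adjusted p = 0.000748). Klrc1, Klrc2 and Klrc3 are closely similar paralogues, so that signal shared between their probe sets cannot be told apart here.

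Klrk1, which encodes NKG2D, measured 4.98 to 5.34 in WT thymus and 5.17 on both ENK KO thymus arrays. In spleen it measured 7.62, 7.81, 8.02 and 8.66 in WT and 6.92, 7.38, 7.52 and 8.19 in ENK KO. The order was again spleen above thymus without overlap, while the genotypes overlapped in spleen. Klrk1 was higher in spleen by 2.87 in WT (SE 0.28; 7.31-fold; limma adjusted p = 1.46e-06) and by 2.34 in ENK KO (SE 0.31; 5.05-fold; limma adjusted p = 3.39e-05).

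Both adaptors were above the filter level on all 14 arrays, thymus included. Hcst, the DAP10 adaptor of NKG2D, measured 7.60 on each WT thymus array and 7.60 and 7.71 in ENK KO thymus, against 9.30 to 9.37 in WT spleen and 9.21 to 9.46 in ENK KO spleen. It was 1.73 higher in WT spleen (SE 0.06; 3.32-fold; limma adjusted p = 1.33e-10) and 1.64 higher in ENK KO spleen (SE 0.07; 3.12-fold; limma adjusted p = 9.10e-10). The Hcst groups did not overlap between populations. Several arrays shared the same Hcst value, 7.60 in thymus and 9.30 in spleen, so the small SEs rest partly on equal values.

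Tyrobp, the DAP12 adaptor, which is abundant in NK and myeloid cells, measured 7.05, 7.16 and 7.31 in WT thymus and 6.97 and 7.05 in ENK KO thymus. In spleen it measured 7.49, 7.63, 7.75 and 7.94 in WT and 7.19, 7.50, 7.66 and 7.85 in ENK KO. The lowest ENK KO spleen array, replicate 25, lay inside the WT thymus range, so that this was the narrowest separation among the members tested. The difference was 0.53 in WT (SE 0.14; 1.44-fold; limma adjusted p = 0.00466) and 0.54 in ENK KO (SE 0.16; 1.45-fold; limma adjusted p = 0.00983). The ENK KO call was lost without the 2-month-old animals (0.38; limma adjusted p = 0.127) and without thymus ENK KO replicate 29 (0.50; limma adjusted p = 0.0676).

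Klrg1 stayed low. It measured 5.39, 5.48 and 5.48 in WT thymus, 5.48 and 5.54 in ENK KO thymus, and 5.48, 5.60, 6.02 and 6.12 in WT spleen. In ENK KO spleen it measured 5.75, 5.88, 6.23 and 7.68, the last on replicate 31. That array was the only 1 of the 14 above the filter level, so Klrg1 was not among the genes tested. With no filter, its spleen minus thymus difference was 0.35 in WT (limma adjusted p = 0.408) and 0.87 in ENK KO (limma adjusted p = 0.0845). Neither passed, where 32.0% and 27.7% of the 19937 genes were called higher in that fit.

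All 6 members tested were higher in WT spleen than in WT thymus, where 31.3% of the 13641 genes tested were called higher and 70.1% were called in either direction. In ENK KO all 6 were called higher too, against 27.9% of all genes called higher and 65.0% called in either direction. Klrd1, Klrc1, Klrc2 and Klrk1 passed the filter only through spleen arrays, so that their count gives no support of its own. The thymus values of these 4 genes lay below the filter level on every array, several arrays shared the same value, and no detection call was used here, so the folds are those between RMA values.

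**Figure D1:**
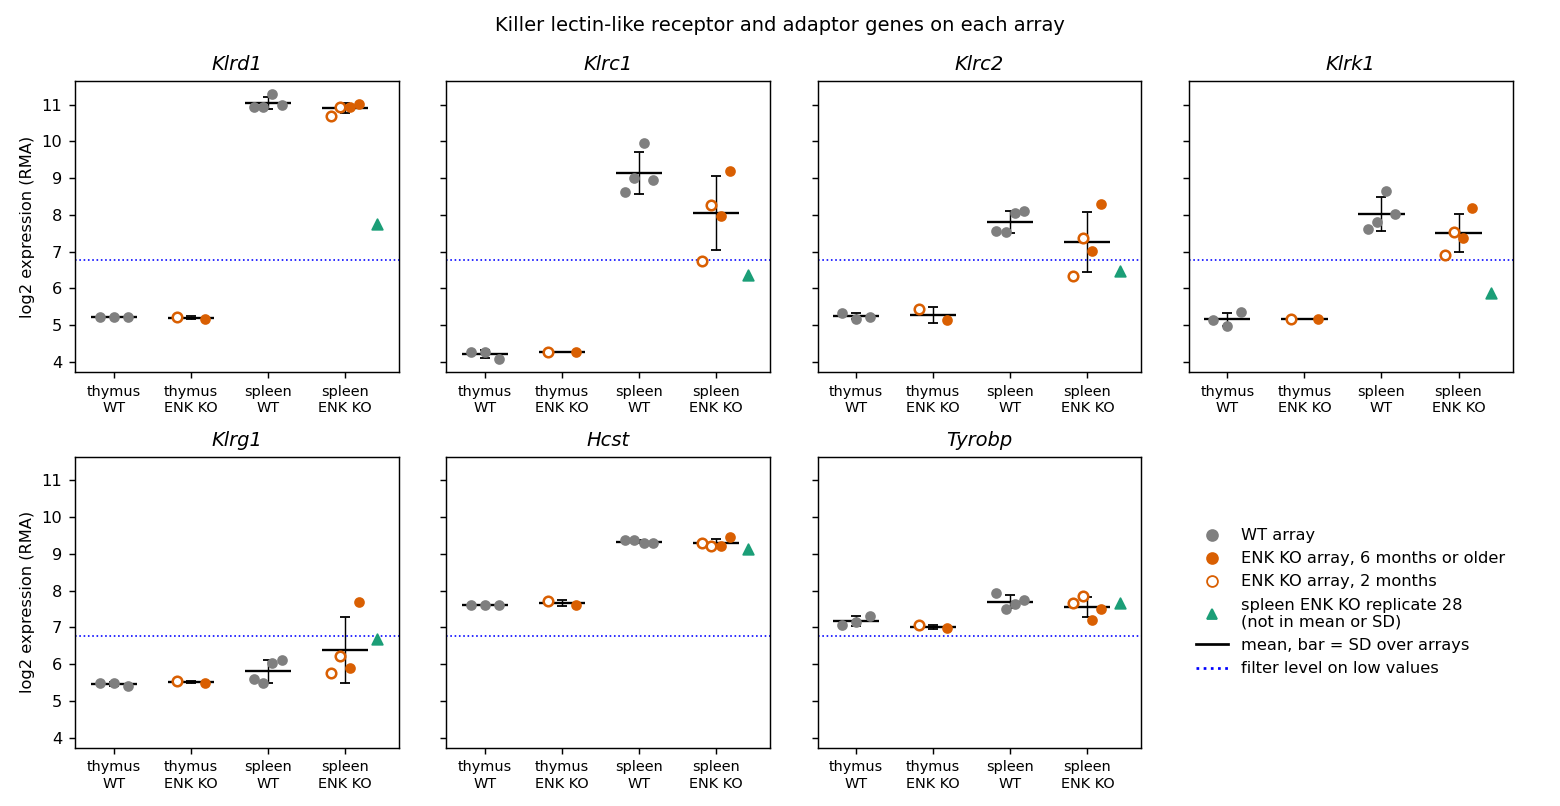
Log2 expression (RMA) of the 7 genes on each of the 14 arrays, by group, with the mean and SD over arrays. Open circles are ENK KO arrays of 2 months, the triangle is spleen ENK KO replicate 28, which enters no mean, and the dotted line is the filter level of 6.76. Klrd1, Klrc1, Klrc2 and Klrk1 lie below the line on every thymus array, Hcst and Tyrobp lie above it everywhere, and Klrg1 crosses it on replicate 31 only.

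Along chromosome 6 the spleen excess was not spread over the whole neighbourhood. In gene order, Gabarapl1, an autophagy gene, was lower in WT spleen than in WT thymus by a difference of -1.85, Klre1 differed by -0.25 at values below the filter, and Klrd1, Klrk1, Klrc3, Klrc2 and Klrc1 then differed by 5.81, 2.87, 3.40, 2.57 and 4.92. Beyond them, Klri1 (1.01), Klri2 (0.27), Klrh1 (0.24) and Klra17 (0.94) were below the filter in these data and were not tested, and Klra5, a Ly49 receptor, differed by 3.50. The ENK KO difference had the sign of the WT difference at each of these and the other genes shown, 15 in all. On chromosome 7, Tyrobp (0.53), Hcst (1.73) and Nfkbid (1.06), an inhibitor of NF-kappaB, lie next to each other.

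**Figure D2:**
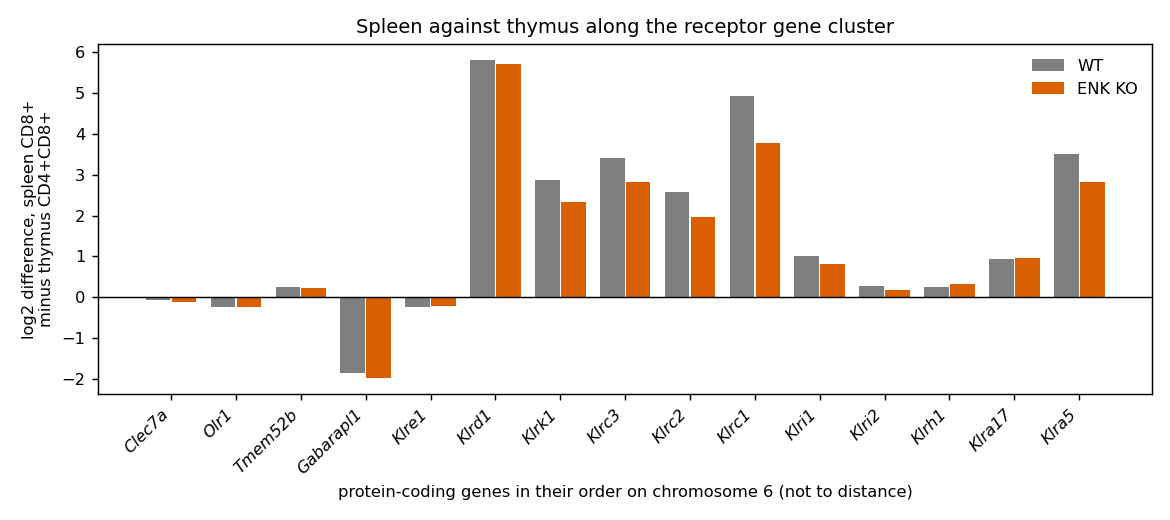
Log2 difference, spleen CD8+ minus thymus CD4+CD8+, for protein-coding genes in their order on chromosome 6 (not to distance), in WT (grey) and ENK KO (orange); bars are differences of group means, without replicate 28. The 5 genes from Klrd1 to Klrc1 stand between 2.57 and 5.81 in WT, whereas Klre1 just before them is at -0.25 and Klri1 just after them at 1.01; Clec7a, Olr1, Tmem52b, Klre1, Klri1, Klri2, Klrh1 and Klra17 were not tested.

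The main question of the design, ENK KO against WT, gave no called member in either population. In spleen, 0 of the 6 tested members passed, where 0.0147% of all genes (2 of 13641) were called by limma; 1327 genes, Klrc1 among them, had an unadjusted p under 0.05. All 6 differences lay below 0, with a median of -0.34 against -0.01 over all genes. Klrd1, Klrc1, Klrc2 and Klrk1 varied together over the spleen arrays, as given further on, so these signs are not separate observations. Klrc1 had the largest, -1.08 (SE 0.42; 95% interval -1.98 to -0.17 before adjustment; limma adjusted p = 0.478). Klrc2 differed by -0.56 (SE 0.32; interval -1.25 to 0.14; limma adjusted p = 0.557) and Klrk1 by -0.52 (SE 0.26; interval -1.08 to 0.03; limma adjusted p = 0.519). The shared chain Klrd1 differed by only -0.13 (SE 0.08; interval -0.31 to 0.05; limma adjusted p = 0.589). The adaptors differed by -0.04 for Hcst (SE 0.05; interval -0.15 to 0.08; limma adjusted p = 0.84) and -0.15 for Tyrobp (SE 0.13; interval -0.43 to 0.13; limma adjusted p = 0.695). Klrg1 ran the other way, at 0.58, and without a filter the interval was -0.15 to 1.31 (limma adjusted p = 0.575, with 0.0100% of all genes called in that fit). The interval was thus wide for Klrc1 and narrow for Klrd1 and Hcst. These intervals use a spread shared with the thymus arrays. Fitted on the spleen arrays alone, the Klrc1 difference had an SE of 0.48 (limma adjusted p = 0.642).

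The spread between arrays was wider in ENK KO than in WT spleen for Klrc1 (SD 1.01 against 0.57) and Klrc2 (0.82 against 0.30). It was similar in both for Klrk1 (0.53 against 0.45) and Klrd1 (0.14 against 0.16). Against the WT mean, Klrc1 was at -2.38 on replicate 3 (2 months), -0.85 on replicate 6 (2 months), -1.15 on replicate 25 (9 months) and 0.07 on replicate 31 (7 months). The first 3 of these lay below every WT array, for Klrc2 and Klrk1 as well. Replicate 31, the ENK KO array with the same age label as the WT arrays, lay within the WT range for Klrc1 and Klrk1 and above it for Klrc2. Without replicate 31 the Klrc1 difference was -1.46 (limma adjusted p = 0.151), without replicate 3 it was -0.64 (limma adjusted p = 0.688), and without both 2-month-old animals it was -0.54 (limma adjusted p = 0.771), with Klrc2 at -0.16 and Klrk1 at -0.24. Klrc2 went to -0.91 without replicate 31 and to -0.25 without replicate 3, and Klrk1 to -0.75 and -0.33. A WT array mattered too: without WT replicate 37 Klrc1 was at -0.80, Klrc2 at -0.48, Klrk1 at -0.31 and Klrd1 at -0.05. With an age of 2 months as a covariate the differences were -0.72 for Klrc1, -0.34 for Klrc2 and -0.34 for Klrk1, and with the sex label as a covariate -0.95, -0.49 and -0.44. They stayed below 0 and uncalled by limma in both fits, and age and sex cannot be told apart within ENK KO.

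Klrc1, Klrc2 and Klrk1 ordered the spleen arrays alike. Of the 8 arrays without replicate 28, ENK KO replicate 3 was the lowest, replicate 25 the second lowest and replicate 6 the third lowest for all 3 genes. WT replicate 37 was the highest for Klrc1 and Klrk1, and ENK KO replicate 31 the highest for Klrc2. Over these 8 arrays Pearson's r was 0.97 between Klrc1 and Klrk1 (Spearman's rho 0.98), 0.92 between Klrc1 and Klrc2 (rho 0.83) and 0.91 between Klrc2 and Klrk1 (rho 0.90). Klrd1, although its arrays spanned a narrow range, followed them, with r = 0.93 to Klrk1 (rho 0.83), 0.91 to Klrc1 (rho 0.73) and 0.78 to Klrc2 (rho 0.81). The arrays hold both genotypes and 3 ages and were normalized by the same method, and the paralogues may share probe signal, so the coefficients are descriptions.

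**Figure D3:**
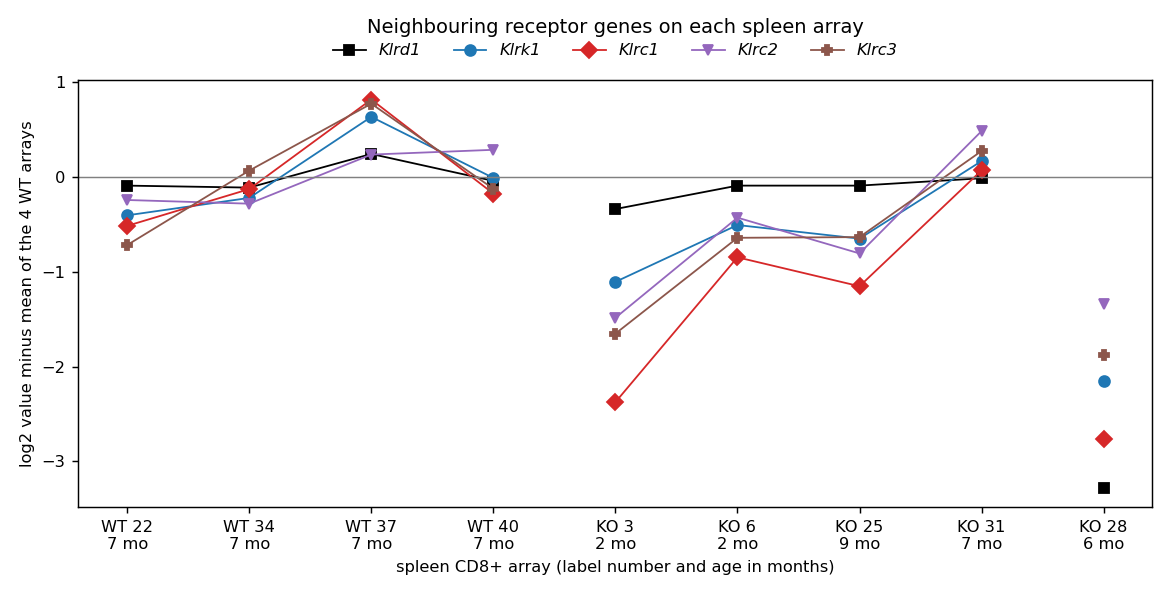
Log2 value minus the mean of the 4 WT arrays, for 5 neighbouring receptor genes on each spleen CD8+ array (label number and age in months). Klrc1 runs from -2.38 on ENK KO replicate 3 to 0.82 on WT replicate 37, and all 5 genes are lowest, among the arrays joined by lines, on replicate 3; on replicate 28, apart on the right, Klrd1 is at -3.28.

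Replicate 28, the array with Cd4 and Foxp3 signal, showed what the receptor genes measured in a spleen library poor in Cd8a. There Klrd1 measured 7.76, Klrc1 6.36, Klrc2 6.47 and Klrk1 5.87, each below every WT spleen array and above every thymus array. Klrg1 measured 6.69, which only replicate 31 exceeded. Hcst at 9.12 and Tyrobp at 7.65 differed by -0.21 and -0.05 from the WT spleen means. Counting this array in its labelled group moved the Klrd1 difference from -0.13 to -0.76 (limma adjusted p = 0.702) and the Klrc1 difference to -1.41 (limma adjusted p = 0.595).

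In thymus the genotypes were close. None of the 6 tested members passed by limma, where 0.0367% of all genes (5 of 13641) did, and 0 members and 555 genes had an unadjusted p under 0.05. The differences, ENK KO minus WT, ran from -0.16 for Tyrobp (interval -0.52 to 0.20) to 0.06 for Klrc1 (interval -1.11 to 1.23), each with a limma adjusted p of 1. Klrg1 differed by 0.06, and with no filter its limma adjusted p was also 1, with 0.0251% of all genes called in that fit. The intervals use the spread shared with the spleen arrays. For Klrc1 the SD was 0.11 in WT and 0.00 in ENK KO thymus, against 0.57 and 1.01 in spleen. Its thymus interval thus mostly reflects the spread between spleen arrays. Only the 2 adaptors were above the filter level in thymus. For the receptor chains the genotypes were thus compared at low values, with no detection call, where a decrease could be hidden.

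The spleen genotype difference minus the thymus genotype difference was called for 0 of the 6 members, where 0.00733% of all genes (1 of 13641) were called by limma; 0 members and 493 genes had an unadjusted p under 0.05. It was -1.14 for Klrc1 (SE 0.68), -0.59 for Klrc2 (SE 0.52), -0.53 for Klrk1 (SE 0.42), -0.10 for Klrd1 (SE 0.14), -0.09 for Hcst (SE 0.09) and 0.01 for Tyrobp (SE 0.21), with limma adjusted p from 0.978 to 0.999.

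**Figure D4:**
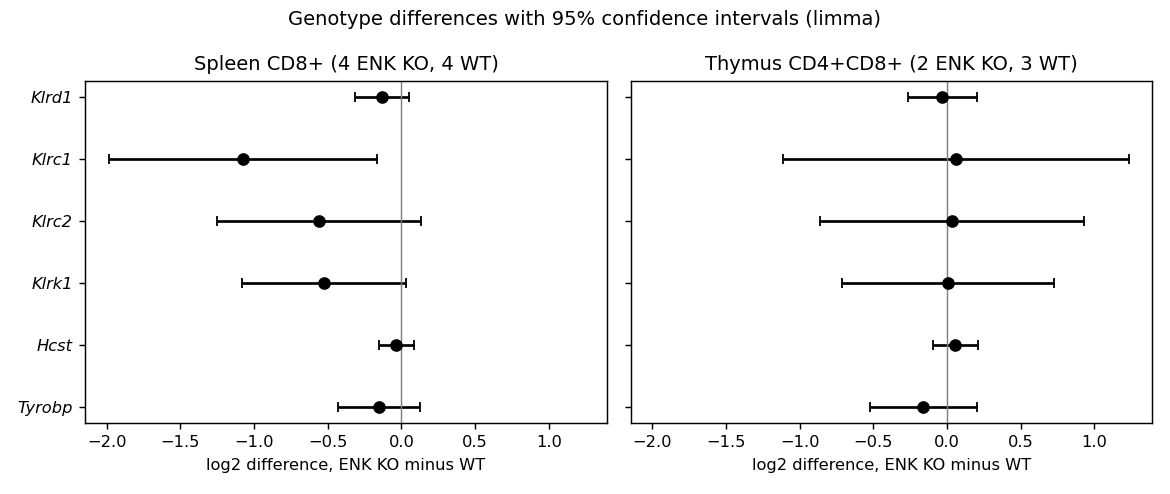
Difference ENK KO minus WT (log2) with its 95% confidence interval from limma for the 6 members tested, in spleen CD8+ cells (left, 4 ENK KO and 4 WT arrays) and thymus CD4+CD8+ cells (right, 2 ENK KO and 3 WT arrays). The Klrc1 interval in spleen, -1.98 to -0.17, is the only 1 that leaves out 0, and its limma adjusted p is 0.478; in thymus every interval holds 0. All intervals use 1 spread shared by both populations.

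Of 22 other killer lectin-like receptors listed, 17 had a probe set and 5 were tested. These 5 were called higher in WT spleen than in WT thymus, where 31.3% of all genes were, and 4 of them in ENK KO, where 27.9% of all genes were. Klrc3, Klra5 and Klra3 passed the filter only through spleen arrays, so that this count gives no support of its own either. Klrc3, the third NKG2 gene, differed by 3.40 in WT (limma adjusted p = 7.75e-06), the Ly49 receptor genes Klra5 and Klra3 by 3.50 (limma adjusted p = 2.41e-05) and 2.04 (limma adjusted p = 5.94e-05), and Klrb1f, an NKR-P1 receptor gene, by 0.93 (limma adjusted p = 0.0034). Klrg2 was at the edge, with 0.21 in WT (limma adjusted p = 0.0498) and 0.21 in ENK KO (limma adjusted p = 0.0843).

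Between genotypes in spleen, 0 of these 5 were called, with a median of -0.37 against -0.01 over all genes. Klrc3 differed by -0.66 (limma adjusted p = 0.548), Klra5 by -0.50 (limma adjusted p = 0.698) and Klra3 by -0.37 (limma adjusted p = 0.654). Klrb1f ran the other way, at 0.70 (SE 0.21; limma adjusted p = 0.461). It measured 7.47, 7.70, 8.09 and 8.35 on the WT spleen arrays and 8.16, 8.31, 8.81 and 9.13 on the ENK KO spleen arrays. The Klrb1f groups overlapped, and replicate 25, with low Klrc1 and Klrk1, was the highest.

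Of 13 listed ligands, 5 had a probe set and 3 were tested. H60b, an NKG2D ligand, was 1.26 higher in WT spleen than in WT thymus (limma adjusted p = 5.09e-08), and Cdh1, the cadherin ligand of KLRG1, 1.25 higher (limma adjusted p = 1.92e-06), whereas Cdh4 differed by 0.03 (limma adjusted p = 0.661). Of all genes, 31.3% were called higher in WT spleen and 70.1% were called in either direction. Between genotypes in spleen 0 of 3 were called, with differences of 0.09 for H60b, -0.11 for Cdh1 and -0.07 for Cdh4 and limma adjusted p of at least 0.636.

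Of 21 tested of 22 signalling genes listed behind the adaptors, 9 were higher and 11 lower in WT spleen than in WT thymus, with a median of -0.16 against -0.04 over all genes. Of all 13641 genes, 4272 were higher and 5287 lower, 70.1% in either direction, so that both directions were common. Pik3cd, a catalytic subunit of the lipid kinase that DAP10 recruits, was 3.06 higher (limma adjusted p = 4.28e-10) and the ubiquitin ligase gene Cblb 1.82 higher (limma adjusted p = 1.01e-11). Its relative Cbl was lower, at -1.64 (limma adjusted p = 8.34e-11) and the exchange factor gene Vav2 too, at -1.57 (limma adjusted p = 2.54e-10). Between genotypes in spleen 0 of 21 were called, and the smallest p was that of Cbl, at 0.16 (limma adjusted p = 0.461), followed by Pik3r1 at 0.16 (0.508), Grb2 at 0.09 (0.575) and Pik3cb at -0.13 (0.584).

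Of 11 tested among 13 other NK receptors and adaptors, 9 were higher and 2 lower in WT spleen than in WT thymus, against 31.3% of all genes higher and 70.1% called in either direction. Itga2, Fcgr3 and Fcer1g, among those higher, passed the filter only through spleen arrays, so that this count gives no support of its own. The 4 with the smallest p, the receptors Crtam, Slamf7, Cd160 and Cd226, differed by 3.09, 3.65, 1.85 and 3.24 (limma adjusted p at most 1.03e-09). Between genotypes in spleen 0 were called. Itga2, an integrin chain of NK cells, differed by -0.28 (limma adjusted p = 0.461), the inhibitory receptor Tigit by -0.72 (limma adjusted p = 0.529), Fcer1g by -0.32 (limma adjusted p = 0.538) and Cd160 by 0.12 (limma adjusted p = 0.575).

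Of 19 tested of 21 effector and memory genes of CD8+ T cells listed, 14 were called higher and 0 lower in WT spleen than in WT thymus, against 31.3% of all genes higher and 70.1% called in either direction. The median was 1.97 against -0.04 over all genes. Some of these genes, such as Eomes, which measured 5.49 to 5.62 in thymus, also passed the filter only through spleen arrays. The cytotoxic granule gene Nkg7 differed by 6.77, the cytokine receptor gene Il2rb by 5.73, the transcription factor gene Eomes by 5.02 and perforin, Prf1, by 2.41 (limma adjusted p at most 1.62e-09). Of 6 naive T cell genes tested, 5 were higher and 1 lower, the smallest p-values being those of Dapl1 (7.29), Il7r (6.93), Ccr7 (4.25) and Igfbp4 (3.59).

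Between genotypes in spleen 0 of the 19 effector and memory genes were called, and 15 of 19 lay below 0, with a median of -0.12. The smallest p-values were those of Fasl (-0.74; limma adjusted p = 0.512), Gzmk (-0.42; 0.519), Prf1 (-0.18; 0.555) and Ccl5 (-0.47; 0.589). Of the naive genes 0 of 6 were called, with a median of 0.00 and differences of -0.21 for Ccr7, 0.05 for Satb1, -0.03 for Dapl1 and 0.03 for Lef1.

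Likeness to Klrd1 and to Klrg1 was measured over the 8 spleen arrays without replicate 28. The 5 tested genes most like Klrd1 by Pearson's r were Snx9 (0.97; rho 0.81), a sorting nexin, Hopx (0.97; rho 0.63), a homeodomain-only protein gene, F2r (0.97; rho 0.83), the thrombin receptor gene, Lgals8 (0.96; rho 0.73), a galectin gene, and Smpdl3b (0.96; rho 0.59). The 5 most like Klrg1 were Cnpy4 (0.96; rho 0.90), Atg16l1 (0.96; rho 0.76), Bbof1 (0.95; rho 0.67), Gzma (0.95; rho 0.74), which encodes granzyme A, and Prpf6 (0.94; rho 0.79), a splicing factor gene. Some spanned little, Lgals8 only 9.56 to 9.68, Atg16l1 9.43 to 9.49 and Prpf6 9.31 to 9.41. These genes are the highest of 13641 ranked on 8 arrays of both genotypes and mixed ages. Coefficients of this size can arise from such a selection, so they are descriptions only. Klrg1 itself exceeded the filter level on replicate 31 only. On replicate 31 Klrg1 measured 7.68 and Gzma 9.37, against at most 6.23 and 7.56 on the other 7 arrays. Gzmb, granzyme B, was also highest there, at 9.45. Between the members themselves Klrg1 had r = 0.26 with Klrd1 and 0.29 with Klrc1.

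Tyrobp had r between -0.14 and 0.13 with the 5 receptor chains over the same arrays, and r = 0.08 with Hcst. Against genes of other cell types, chosen after the values were seen, Tyrobp had r = 0.91 with each of the B cell genes Cd79a and Ms4a1. It had r = 0.77 with Fcer1g of the NK cell list and 0.70 with the myeloid gene Lyz2. The other B cell and myeloid markers were not set against Tyrobp. WT spleen minus WT thymus was 2.06 for Ms4a1, 1.78 for Cd79a and -0.28 for Cd79b. For the myeloid markers tested it was 1.11 for Cd68, 0.19 for Lyz2, 0.15 for Csf1r and -0.94 for Itgam. The mean of the 3 B cell markers with a probe set was 7.97 to 8.57 on WT spleen arrays, 7.22 to 8.36 on ENK KO spleen arrays and 6.95 to 7.11 in thymus, and the mean of the 5 myeloid markers was 7.22 to 7.39, 7.09 to 7.53 and 7.06 to 7.21. The part of such cells in the Tyrobp difference between populations was not tested.

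**Figure D5:**
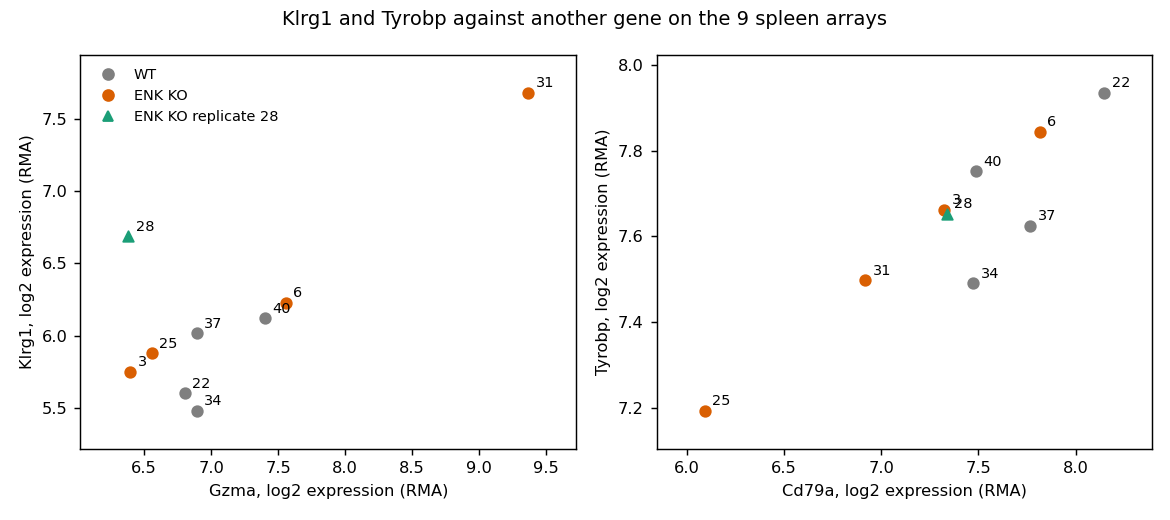
Log2 expression of Klrg1 against Gzma (left) and of Tyrobp against Cd79a (right) on the 9 spleen arrays, numbered as in the labels. ENK KO replicate 31 stands alone at 7.68 for Klrg1 and 9.37 for Gzma, and Tyrobp runs from 7.19 on replicate 25, where Cd79a is 6.09, to 7.94 on WT replicate 22, where Cd79a is 8.15.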

How the data were processed

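Gene expression was measured on 14 Affymetrix mouse arrays. Per the labels' protocols, RNA was extracted with TRIzol and a silica column, and 300 ng were turned into biotinylated sense-strand cDNA. What the authors deposited are RMA values on the log2 scale, per the submitters' processing notes. No software, version or genome build is given in the sources used here, nor whether RMA was run on all arrays at once.

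Of 28213 probe sets, 21640 had 1 gene symbol in the platform annotation, 1321 had several and 5252 had none listed. The RefSeq table of GRCm38.p6 held the gene ID of 21553 of these and changed 0 symbols, and per gene the probe set with the highest mean was kept (954 of 19937 genes had several). Genes had to exceed 6.76, the 40th percentile of the whole table, on 2 or more arrays to be tested, which 13641 did.

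Samples were grouped by their labels. A mean per group, with 1 more for replicate 28 (13 arrays in the group means), was fitted to all arrays together in limma 3.58.1 under R 4.3.3, with 1 shared spread and eBayes with a trend; Benjamini-Hochberg adjustment ran over the 13641 genes, and a gene with an adjusted p below 0.05 was called. Separate animals are not stated in the labels, and the p-values thus rest on the spread from sample to sample, which may be technical. The spleen and thymus contrasts share groups with the genotype contrasts. The fit was checked on simulated data in which every group started from the WT spleen mean, with 1 spread per gene. That check cannot speak to genes whose spread differs between thymus and spleen. The gene members and the lists were chosen with earlier results of these data known. The text names all members, up to 4 genes of each other list by smallest p, the 5 genes most like Klrd1 and the 5 most like Klrg1 by Pearson's r; Klrg2, Gzmb and the cell type genes set against Tyrobp were named after their values were seen. Promoters came from the RefSeq table, which matched 4 of the 7 members. Alternatives were other filters, normalization, probe set summary, variance model, covariates and sets of arrays.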

Additional observations from a re-analysis of the deposited data

Results flagged for a closer look

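On spleen ENK KO replicate 28 Klrd1 measured 7.76, the lowest of the 5 arrays with that label. Its gap to the next array was 0.90 of the range of the 5, above the critical value of 0.71 of Dixon's test at 95%. This was the only flag among the 21 groups of member values tested (each with 4 or 5 arrays), and chance flags about 1 group in 20. The groups were WT spleen and ENK KO spleen with and without replicate 28, for each of the 7 genes. They share arrays and are not separate tests. Replicate 28 had Cd4 at 12.20 and Cd8a at 6.78.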

How the results depend on the processing

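The counts of called members were 0 for the genotype difference in spleen, in thymus and for the difference between them under all 24 or 25 alternatives run, 6 for WT spleen minus thymus under all 24, and 5 to 6 for ENK KO, where Tyrobp was lost without the 2-month-old animals and without thymus ENK KO replicate 29. The genotype difference of Klrc1 in spleen stayed below 0, from -1.46 to -0.54 (limma adjusted p from 0.151 to 0.771), that of Klrk1 ran from -0.85 to -0.24 and that of Klrc2 from -0.91 to -0.16. Of 854 values for named members, 16 changed sign, all of them small and none called. Without the 2-month-old animals, Hcst in spleen was 0.0021, Klrc2 in thymus -0.12, and the difference between populations 0.0098 for Klrd1, 0.0021 for Hcst and -0.15 for Tyrobp. With 2 months as a covariate Klrd1 in thymus was 0.013, and with the sex label as a covariate the Tyrobp difference between populations was -0.0073. Leaving out 1 array in turn gave -0.12 to 0.18 for Klrc2 in thymus, -0.0765 to 0.10 for Klrk1 in thymus and -0.0897 to 0.13 for the Tyrobp difference between populations. The cause was not tested. No paired analysis was possible because no replicate number occurs in more than 1 group. The number of arrays, 2 in the smallest group, limits what could be called, and low RMA values in thymus limit what a fold there can show.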
